A study of Arabidopsis thaliana with 12 samples.

Results

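The comparison of afb3-1 with Ws roots in the absence of nitrate rests on 6 of the 12 arrays of the study, 3 of afb3-1 and 3 of Ws, all from plants given 5 mM KCl for 2 h. Every probe set other than the array controls entered it, 22746 of 22810. Arrays of one replicate number were taken as pairs, because they deviated together from their group means. The afb3-1 plants carry a mutant allele of AFB3, and Ws is the accession they were compared with. A single allele was used. Both genotypes were grown hydroponically for 14 days with 0.5 mM ammonium succinate as the only nitrogen source and 3 mM sucrose, and whole roots were taken on day 15, so the roots of both groups had ammonium and no nitrate. The other 6 arrays, 3 of afb3-1 and 3 of Ws roots given 5 mM KNO3 for 2 h, share the estimate of spread and are used to look again at genes named from the KCl arrays.

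AFB3 belongs to the TIR1/AFB family of F-box proteins, the auxin receptors of plants. In a root cell, auxin brings such a receptor together with an Aux/IAA repressor, the repressor is ubiquitinated and degraded, and auxin response factors can then act on their target genes, among them GH3 enzymes that conjugate auxin and the LBD factors that start lateral roots. AFB3 is also known in Arabidopsis roots as a nitrate-induced gene, so a comparison in KCl asks how the mutant differs before nitrate is given.

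The values are the deposited log2 signals as the authors processed them, and a difference of 1 is a 2-fold change. On the KCl arrays the median signal lay between 3.78 and 3.92. Arrays of 1 group correlated across probe sets with Pearson r between 0.973 and 0.996, and arrays of different genotype between 0.973 and 0.995. One array stood apart. Ws replicate 3 gave the lowest of the 6 KCl signals for 27.9% of probe sets and the highest for 23.7%, while no other array gave the lowest for more than 16.9% or the highest for more than 19.0%. The 24 probe sets for the dap, lys, phe and thr transcripts, bacterial RNAs that can be added during labelling, averaged 3.18, 3.51 and 3.45 on the afb3-1 arrays, against 3.54, 3.71 and 4.33 on the Ws arrays. All 24 were lower in afb3-1 by mean, with an average difference of −0.48, and of −0.28 without replicate 3. Leaving out pair 3 thus does not remove this difference, which runs along genotype. Because Ws replicate 3 stood apart, differences of leading genes are also given without pair 3. AFB3 had no named probe set in the annotation used here, so the mutated gene could not check the genotype labels. None of the 7 endodermis and stele markers and none of the 3 root tip markers had a named probe set. The root hair expansins EXPA7 and EXPA18 did, and EXPA7 gave 5.40, 5.21 and 5.31 in afb3-1 against 4.98, 4.99 and 6.10 in Ws.

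Without nitrate, no probe set differed between afb3-1 and Ws roots at an adjusted p of 0.05. The test was limma's moderated test within pairs with Benjamini-Hochberg adjustment over 22746 probe sets, and the smallest adjusted p was 0.639. Before adjustment, 1614 probe sets (7.10%) had a p under 0.05, 834 of them higher (3.67%) and 780 lower (3.43%) in afb3-1. That split leaned the other way after each array was centred on its median, when 26.6% of 1987 were higher, against 51.7% of the 1614. A difference of at least 1.5-fold was estimated for 81 probe sets (0.356%) and of at least 2-fold for 3 (0.0132%). The median 95% confidence interval reached 0.27 log2 units to either side of its estimate before any allowance for the number of probe sets tested.

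Of the 3 probe sets past 2-fold, 2 have a named gene, and all were lower in afb3-1. The third, which has no single gene in the annotation, differed by −1.18, mostly through pair 1 (−2.84). The 12 largest negative differences among named genes ran from −1.14 to −0.67 and the 12 largest positive ones from 0.49 to 0.76. These 24 genes were taken from the 434 genes with an unadjusted p under 0.05, the same sign in all 3 pairs and a mean of at least 4 in 1 of the groups. Since the KCl contrast chose them, their differences are given as a description. Adjusted p-values (limma) were 0.639 to 0.651 among the 12 lower and 0.639 to 0.675 among the 12 higher genes.

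**Figure D1:**
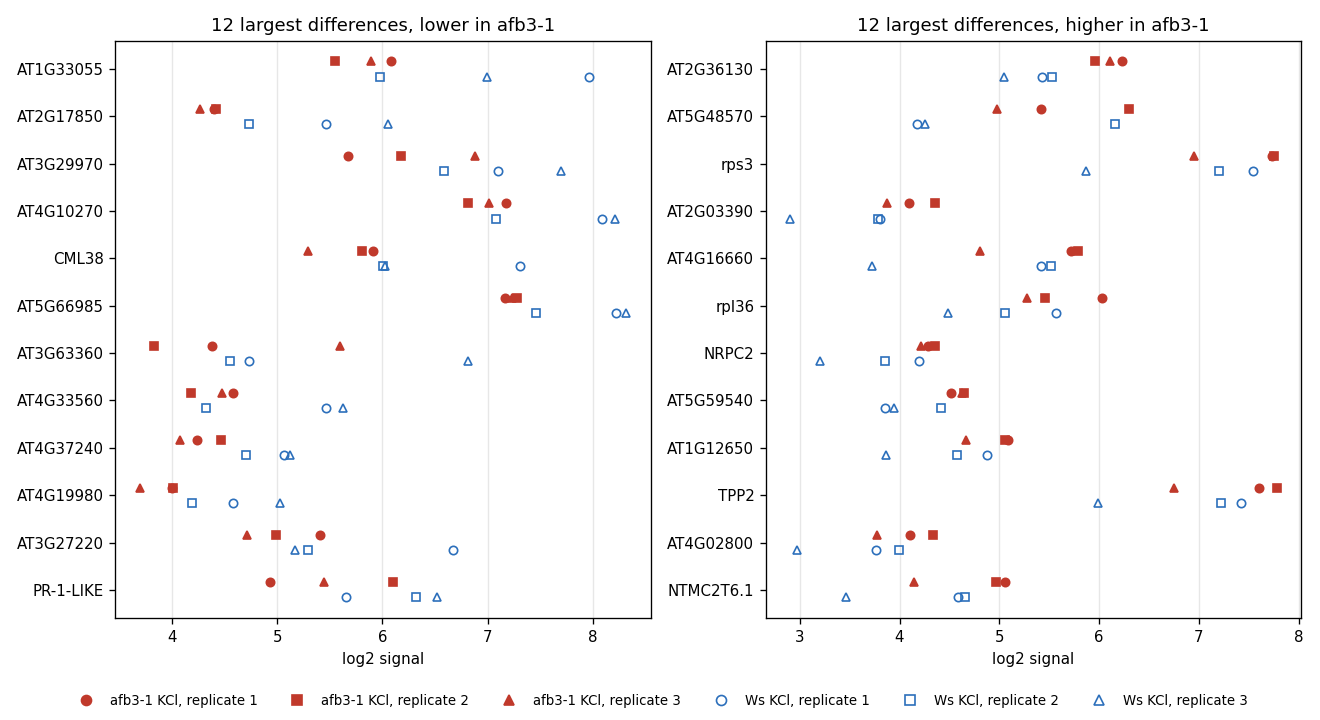
Log2 signal of the 24 named genes on each KCl array, with the 12 lower in afb3-1 on the left and the 12 higher on the right. Filled red symbols are afb3-1 and open blue symbols Ws, and circles, squares and triangles mark replicates 1, 2 and 3. Ws replicate 3 is the highest of the 6 arrays for 9 of the 12 genes on the left and the lowest for 10 of the 12 on the right.

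The gene with the largest difference was AT1G33055, a short protein of no assigned function. Its signal was 6.08, 5.55 and 5.89 in afb3-1 roots, against 7.97, 5.98 and 7.0 in Ws roots. All afb3-1 arrays but one lay below the lowest Ws array, and Ws replicate 2 lay close to the mutant. The difference was −1.14 (SE 0.28), a signal 2.2-fold lower in afb3-1, and −1.16 without pair 3.

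AT2G17850, which encodes a rhodanese-domain protein, gave 4.40, 4.42 and 4.27 in afb3-1 and 5.47, 4.73 and 6.05 in Ws. The afb3-1 arrays agreed closely, all lay below every Ws array, and the spread was in Ws. The difference was −1.05 (SE 0.27), or 2.08-fold lower, and −0.69 without pair 3. AT3G29970, of the B12D protein family, was lower by −0.88 (SE 0.27), with 5.68, 6.18 and 6.88 in afb3-1 and 7.10, 6.59 and 7.70 in Ws. Here the groups overlapped, since both genotypes were highest on replicate 3.

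A pair of genes of a wound-responsive protein family were among the 12. AT4G10270 gave 7.18, 6.81 and 7.01 in afb3-1 against 8.09, 7.08 and 8.21 in Ws, a difference of −0.79 (SE 0.22). AT4G33560 gave 4.58, 4.18 and 4.47 in afb3-1 against 5.46, 4.33 and 5.63 in Ws, a difference of −0.73 (SE 0.26). In both genes Ws replicates 1 and 3 were high and Ws replicate 2 was at the level of the mutant.

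CML38, a calmodulin-like calcium sensor, gave 5.91, 5.8 and 5.30 in afb3-1 and 7.31, 6.0 and 6.02 in Ws. All afb3-1 arrays lay below all Ws arrays, and Ws replicate 1 alone was far above them. The difference was −0.78 (SE 0.27), and −0.46 without pair 1. AT3G27220, a kelch-repeat protein, gave 5.41, 4.98 and 4.71 in afb3-1 and 6.67, 5.29 and 5.17 in Ws, a difference of −0.67 (SE 0.20) that was −0.38 without pair 1. Ws replicate 1 was again the high array, and afb3-1 replicate 1 overlapped the other Ws arrays.

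AT5G66985, a protein of no assigned function, varied least among the afb3-1 arrays. It gave 7.17, 7.28 and 7.23 in afb3-1 and 8.22, 7.46 and 8.32 in Ws, with no overlap, and a difference of −0.77 (SE 0.17). AT4G37240 also separated the groups, with 4.24, 4.47 and 4.08 in afb3-1 against 5.06, 4.70 and 5.12 in Ws and a difference of −0.70 (SE 0.15), and so did AT4G19980, with 4.0, 4.01 and 3.69 against 4.58, 4.19 and 5.03 and a difference of −0.70 (SE 0.19) that was −0.38 without pair 3. Genes whose afb3-1 arrays all lay below all Ws arrays numbered 5 of these 12, where 4.38% of all probe sets did so, but the choice of the 12 used the same arrays.

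The last 2 lower genes varied more between replicates than between genotypes. AT3G63360, a defensin-like peptide gene, gave 4.38, 3.83 and 5.59 in afb3-1 and 4.73, 4.55 and 6.81 in Ws, so that the genotypes overlapped although each pair was lower in afb3-1. Its paired difference was −0.76 (SE 0.15). Without Ws replicate 3 alone, with arrays taken as independent, it was −0.041. PR-1-LIKE, a relative of the pathogenesis-related protein PR-1, gave 4.94, 6.10 and 5.45 in afb3-1 and 5.65, 6.32 and 6.52 in Ws, a difference of −0.67 (SE 0.22).

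The 12 lower genes shared a pattern over the pairs that the rule did not ask for. Their median difference was −0.98 in pair 1, −0.25 in pair 2 and −1.10 in pair 3, and pair 2 gave the smallest difference for 11 of the 12. Ws replicate 2 had the lowest signal of the Ws arrays for 10 of the 12. A pattern over 3 pairs has no test of its own here. Pair 2 also had the smallest SD of differences over all probe sets (0.222), so choosing genes by size favours this pattern. Without pair 3 the 12 differences ran from −1.16 to −0.38, and 10 of the 12 had an unadjusted p under 0.05. That level was reached without pair 3 by 2045 of all 22746 probe sets. The count of 10 favours these genes, because the remaining pairs had also chosen them.

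Among the genes higher in afb3-1, 3 encode enzymes or chaperones of protein folding. AT2G36130, the cyclophilin-type prolyl isomerase CYP18-2, led them, with 6.23, 5.96 and 6.11 in afb3-1 and 5.43, 5.53 and 5.05 in Ws. The groups did not overlap and the arrays within each were close. The difference was 0.76 (SE 0.14), or 1.70-fold, and 0.61 without pair 3.

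AT5G48570, the heat-inducible FKBP-type isomerase ROF2, gave 5.42, 6.30 and 4.98 in afb3-1 and 4.17, 6.16 and 4.26 in Ws. Replicate 2 was high in both genotypes, and the difference of 0.70 (SE 0.21) came from pairs 1 and 3 and was 0.43 without pair 1. AT4G16660, an Hsp70-family chaperone, gave 5.72, 5.79 and 4.81 in afb3-1 and 5.42, 5.51 and 3.72 in Ws, a difference of 0.55 (SE 0.22). Replicate 3 was low in both genotypes and lowest in Ws. Without pair 3 the difference was 0.28, and without Ws replicate 3 alone, with arrays taken as independent, it was −0.030. Of the heat shock family, ATHSP22.0 gave 5.97, 6.97 and 3.26 in afb3-1 and 3.54, 7.01 and 3.89 in Ws, a difference of 0.59 with an SE of 0.59.

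Ribosomal proteins encoded in the plastid genome followed. rps3, of the small subunit, gave 7.74, 7.75 and 6.96 in afb3-1 and 7.54, 7.21 and 5.87 in Ws, a difference of 0.61 (SE 0.19) that was 0.37 without pair 3. rpl36, of the large subunit, gave 6.03, 5.46 and 5.28 in afb3-1 and 5.57, 5.06 and 4.48 in Ws, a difference of 0.55 (SE 0.13). Both were lowest on Ws replicate 3. The 69 measured plastid-encoded genes together had a median difference of −0.05, with 4 higher and 2 lower at an unadjusted p under 0.05 (8.70%, close to the 7.10% of all probe sets). The median over the 69 was −0.13 in pair 1, −0.10 in pair 2 and 0.13 in pair 3. Of the 15 green tissue markers 2 were measured and neither was at 0. RCA, Rubisco activase, gave 6.08, 6.03 and 7.32 in afb3-1 against 6.32, 5.49 and 5.97 in Ws, and the chlorophyll-binding protein LHCB4.1 gave 5.27, 5.07 and 7.07 against 5.76, 4.90 and 5.87. Both were high on afb3-1 replicate 3 alone, and the part of such transcripts in the plastid results was not tested.

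Genes for RNA synthesis and ribosome assembly were also among the 12. NRPC2, the second-largest subunit of RNA polymerase III, gave 4.28, 4.36 and 4.22 in afb3-1 and 4.20, 3.85 and 3.2 in Ws, with all afb3-1 arrays above all Ws arrays and a difference of 0.54 (SE 0.16) that was 0.30 without pair 3. AT1G12650, a homologue of the ribosomal RNA processing factor Rrp36 of yeast, was higher by 0.50 (SE 0.16), with 5.09, 5.06 and 4.67 in afb3-1 and 4.88, 4.58 and 3.86 in Ws. Its groups overlapped, because afb3-1 replicate 3 lay below Ws replicate 1.

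The remaining 5 differed by 0.49 to 0.61. AT2G03390, a protein with a UvrB/UvrC motif, gave 4.09, 4.35 and 3.87 in afb3-1 against 3.80, 3.79 and 2.91 in Ws, with no overlap. AT5G59540, a 2-oxoglutarate-dependent oxygenase, gave 4.52, 4.64 and 4.62 in afb3-1 against 3.85, 4.42 and 3.94 in Ws, again with no overlap and little spread in the mutant. TPP2, the cytosolic tripeptidyl peptidase, gave 7.60, 7.78 and 6.75 in afb3-1 and 7.43, 7.22 and 5.99 in Ws. In TPP2, as in AT4G02800 (0.49) and the C2-domain membrane protein NTMC2T6.1 (0.49), Ws replicate 3 lay far below the other arrays and the groups overlapped.

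Pair 3 gave the largest difference for 11 of the 12 higher genes. Their median difference was 0.32 in pair 1, 0.41 in pair 2 and 0.81 in pair 3. Without pair 3 the 12 differences ran from 0.28 to 0.69, and 7 of the 12 had an unadjusted p under 0.05. Of all 22746 probe sets, 2045 reached that level without pair 3. The count of 7 again favours genes that the remaining pairs had also chosen. Without Ws replicate 3 alone, with arrays taken as independent, the 12 differences ran from −0.030 to 0.62. Genes whose afb3-1 arrays all lay above all Ws arrays numbered 4 of the 12, where 2.46% of all probe sets did so, but the choice used the same arrays.

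**Figure D2:**
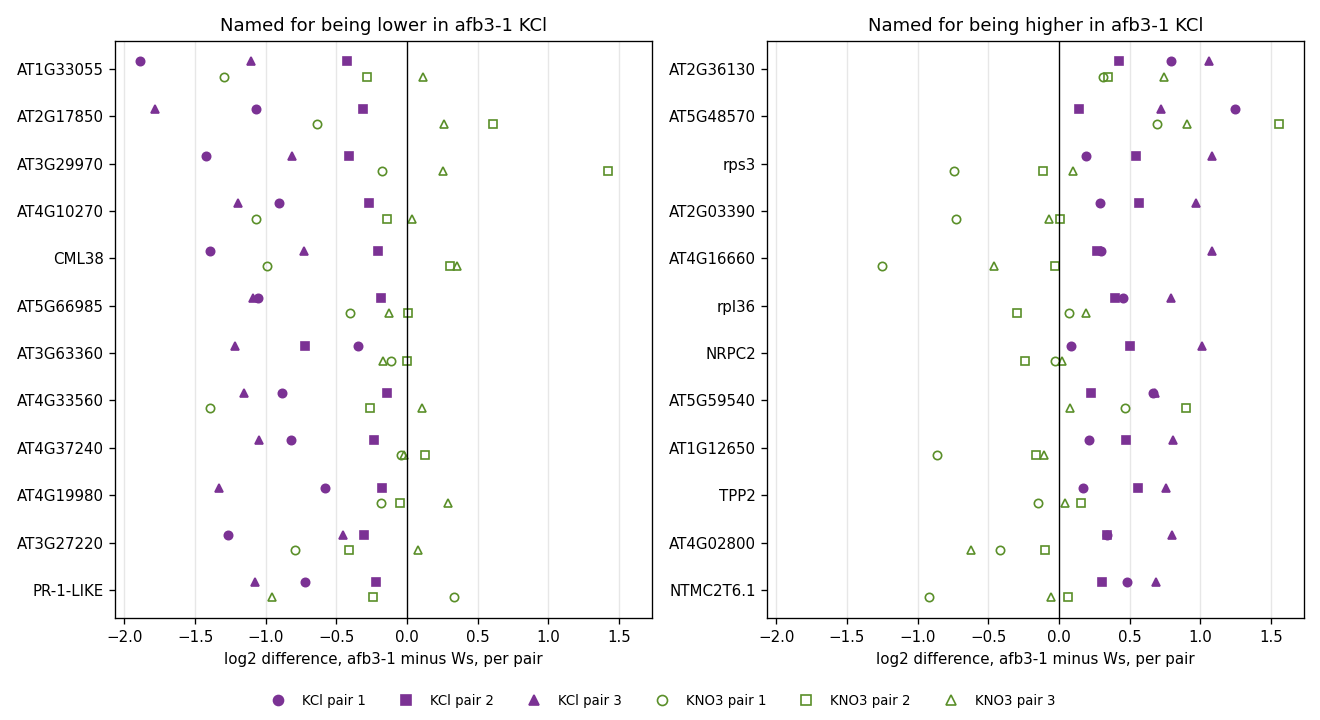
Log2 difference, afb3-1 minus Ws, in each pair of arrays for the 24 named genes. Filled purple symbols are the 3 KCl pairs that chose the genes and open green symbols the 3 KNO3 pairs, and the vertical line marks no difference. The KCl pairs lie on 1 side by the rule, with pair 2 nearest to 0 for 11 of the 12 lower genes, while the KNO3 pairs lie on both sides of the line.

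The 3 KCl pairs shared little of their genotype difference over all probe sets. The differences of pair 3 had an SD of 0.346 over probe sets, those of pair 1 of 0.256 and those of pair 2 of 0.222, and 272, 70 and 8 probe sets were at least 2-fold apart in these pairs. Across the 22746 probe sets the differences of the pairs correlated with Pearson r of 0.22 for pairs 1 and 2, −0.14 for pairs 1 and 3 and 0.03 for pairs 2 and 3. Probe sets are not independent replicates, and no array is shared between pairs. The same sign in all 3 pairs was seen for 2953 probe sets higher (13.0%) and 3160 lower (13.9%) in afb3-1.

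Genes of auxin signalling and lateral root formation, the processes AFB3 is known for, gave small differences between the genotypes in KCl, most of them negative. Of 97 genes in 7 lists, 19 in 4 lists had a named probe set. None passed the adjusted threshold, 3 were lower at an unadjusted p under 0.05 (15.8%, against 7.10% of all probe sets) and 0 were higher. The count of 3 lower became 2 without pair 1, 2 (with 1 higher) without pair 2, 1 without pair 3, 0 with no replicate block and 5 with array weights. Their differences ran from −0.47 to 0.17 with a median of −0.06, where the median of all probe sets was −0.01. Of the 19 estimates 14 were negative, as were 11755 of the 22746 over all probe sets. The sign was negative in all 3 pairs for 9 of the 19 (47.4%, against 13.9% of all probe sets), namely LBD16, LBD29, PUCHI, IAA29, IAA33, GH3.1, GH3.5, YUC2 and DAO1. Among these, GH3.1 differed by only −0.04, −0.02 and −0.03 in the 3 pairs. PUCHI, IAA29, GH3.1 and YUC2 had signals near the floor of the array. So did IAA33 on replicates 1 and 2 of both genotypes, with signals from 1.98 to 2.38. The lists of auxin receptors, auxin response factors and auxin transporters held no gene with a named probe set.

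**Figure D3:**
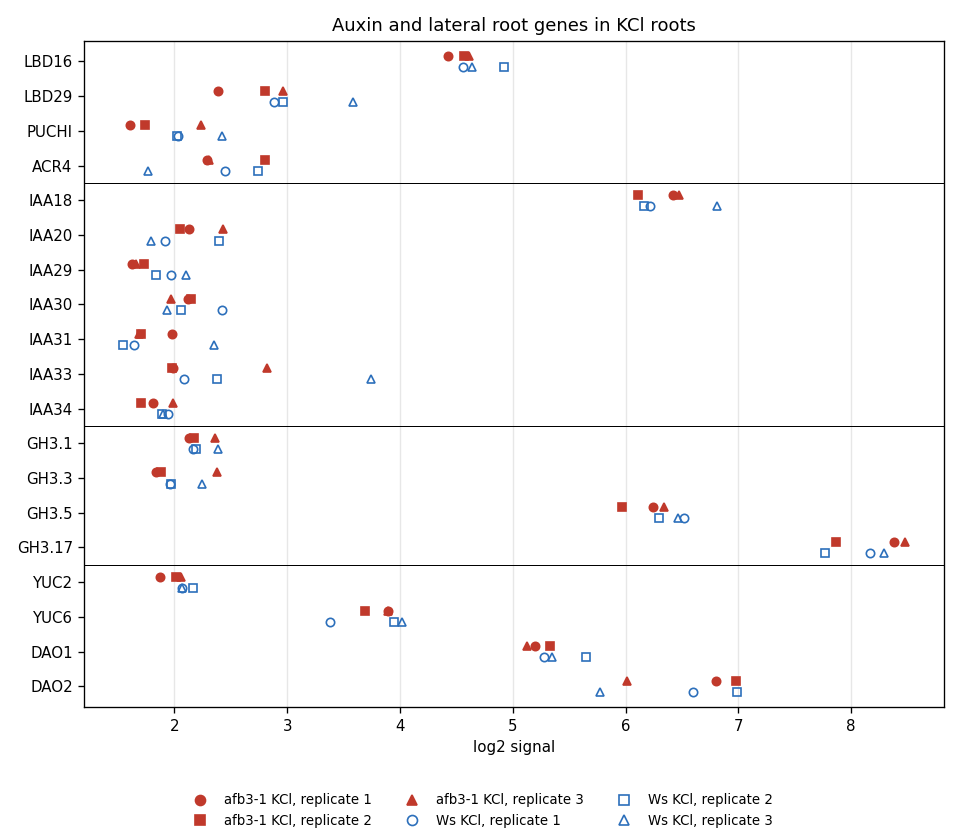
Log2 signal of the 19 measured auxin and lateral root genes on each KCl array, in 4 blocks from lateral root initiation at the top through Aux/IAA repressors and GH3 enzymes to auxin synthesis and oxidation. Filled red symbols are afb3-1 and open blue symbols Ws. The afb3-1 symbol of each replicate lies left of its Ws partner in 9 of the 19 genes, LBD29 and PUCHI among them, while the 2 genotypes overlap in most genes.

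Lateral root initiation had 4 measured genes of 14. LBD29, a LOB-domain transcription factor that acts downstream of auxin response factors in founder cells, gave 2.39, 2.80 and 2.96 in afb3-1 and 2.88, 2.97 and 3.58 in Ws. Each pair was lower in the mutant, but afb3-1 replicate 3 overlapped the Ws arrays. The difference was −0.42 (SE 0.13), with a limma p of 0.0094 before and 0.639 after adjustment, and −0.33 without pair 3.

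PUCHI, an AP2/ERF factor that shapes the young primordium, gave 1.60, 1.74 and 2.23 in afb3-1 and 2.03, 2.02 and 2.43 in Ws. It too was lower in each pair, by −0.30 on average (SE 0.12, adjusted p = 0.668 with limma), at signals near the floor of the array, where a log2 difference can understate a change. LBD16, the partner of LBD29, gave 4.43, 4.57 and 4.61 in afb3-1 and 4.56, 4.92 and 4.64 in Ws. Its difference of −0.17 had a 95% interval from −0.45 to 0.10. ACR4, the receptor kinase of the pericycle, differed by 0.15 (95% interval −0.17 to 0.47), with 2.29, 2.80 and 2.31 in afb3-1 and 2.45, 2.74 and 1.77 in Ws. In whole roots, fewer primordium cells and less transcript per cell cannot be told apart.

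Of the Aux/IAA repressors, 7 of 28 were measured. IAA33 gave 1.99, 1.98 and 2.82 in afb3-1 and 2.09, 2.38 and 3.74 in Ws, a difference of −0.47 (SE 0.16, adjusted p = 0.651 with limma) that came mostly from pair 3. It was −0.25 without pair 3, and 0.033 without Ws replicate 3 alone with arrays taken as independent. IAA29 gave 1.62, 1.73 and 1.66 in afb3-1 and 1.97, 1.83 and 2.1 in Ws, with no overlap and a difference of −0.29 (95% interval −0.63 to 0.04).

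The other 5 Aux/IAA genes lay between −0.08 and 0.17. IAA18 was the only member with a signal above 4, at 6.42, 6.11 and 6.48 in afb3-1 and 6.21, 6.16 and 6.81 in Ws, and differed by −0.06 (95% interval −0.36 to 0.24). For IAA31, pair 3 went against the other pairs. The list's median difference was −0.06.

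GH3 amido synthetases join auxin to amino acids and are classical auxin-induced genes. GH3.5 gave 6.25, 5.97 and 6.34 in afb3-1 and 6.52, 6.30 and 6.46 in Ws, lower in each pair, with a difference of −0.24 (95% interval −0.52 to 0.03). GH3.17, the most strongly expressed member, gave 8.38, 7.87 and 8.48 in afb3-1 and 8.17, 7.77 and 8.30 in Ws, higher in each pair by 0.16 on average (95% interval −0.12 to 0.44). GH3.1 and GH3.3 both differed by −0.03. Among genes of auxin synthesis and breakdown, the auxin oxidase DAO1 gave 5.20, 5.33 and 5.13 in afb3-1 and 5.27, 5.65 and 5.35 in Ws, a difference of −0.20 (95% interval −0.44 to 0.03). Its neighbour DAO2 differed by 0.14, and the flavin monooxygenases YUC2 and YUC6, which make auxin, by −0.12 and 0.04.

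Of 24 genes of nitrogen uptake and assimilation, 2 had a named probe set. NPF6.4, a transporter of the nitrate and peptide transporter family, gave 5.14, 5.41 and 5.77 in afb3-1 and 4.55, 4.88 and 5.68 in Ws. Pairs 1 and 2 differed and pair 3 hardly did, with a difference of 0.40 overall (SE 0.12, adjusted p = 0.639 with limma) and 0.56 without pair 3. NRT2.5, a high-affinity nitrate transporter of nitrogen-starved roots, varied far more between replicates than between genotypes. It gave 4.95, 3.49 and 7.25 in afb3-1 and 4.85, 3.46 and 7.78 in Ws, a difference of −0.13 (95% interval −0.56 to 0.29).

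Of 16 nitrate signalling genes, 4 were measured. NRG2, a regulator of nitrate signalling upstream of nitrate transport, gave 6.75, 6.71 and 6.50 in afb3-1 and 6.61, 6.45 and 6.2 in Ws, higher in each pair by 0.23 on average (SE 0.10, adjusted p = 0.701 with limma). The GARP-type repressors HHO2 and HHO3 differed by 0.00 and 0.05, but not evenly. HHO2 gave 3.63, 3.6 and 1.65 in afb3-1 and 3.1, 3.26 and 2.52 in Ws, so that pairs 1 and 2 were higher and pair 3 lower in the mutant, and without pair 3 its difference was 0.43. HHO3 gave 4.63, 4.69 and 3.5 in afb3-1 and 4.42, 4.17 and 4.09 in Ws, and 0.37 without pair 3. HHO1 was near the floor, with a difference of −0.18.

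Genes that supply reductant and carbon skeletons were close between genotypes. The 6-phosphogluconate dehydrogenases PGD1, PGD2 and PGD3 differed by −0.02, 0.08 and −0.05. PGD2 gave 9.71, 9.54 and 9.56 in afb3-1 and 9.64, 9.53 and 9.40 in Ws, and its 95% interval ran from −0.15 to 0.30. The cytosolic isocitrate dehydrogenase cICDH gave 10.52, 10.53 and 10.51 in afb3-1 and 10.71, 10.75 and 10.13 in Ws, a difference of −0.01. The cytokinin response regulators ARR15 and ARR16 differed by −0.13 and 0.12 and the clock gene GI by 0.07.

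Larger gene families stayed near the median of all probe sets. Among 52 UDP-glycosyltransferases the median difference was −0.05, with 1 higher and 3 lower at an unadjusted p under 0.05 (7.69%, close to the 7.10% of all probe sets). UGT72E3, which glucosylates lignin precursors, was lower in each pair by −0.36 on average, but differed by 0.063 without Ws replicate 3 with arrays taken as independent. The 26 genes with a cytochrome P450 name had a median of −0.01, with 1 higher and 1 lower at that level (7.69% again), and the higher one, CYP71, is a cyclophilin that shares the name pattern. Of 14 glutathione transferases GSTL3 alone had an unadjusted p under 0.05, with 4.32, 4.79 and 5.15 in afb3-1 and 4.15, 4.46 and 4.55 in Ws and a difference of 0.37. Among 29 expansins and xyloglucan endotransglucosylases, enzymes that loosen or remodel the cell wall, 0 were higher and 3 lower (10.3%, against 7.10% of all probe sets). The wall-loosening expansin EXPA8 gave 5.51, 5.36 and 5.56 in afb3-1 and 5.73, 5.70 and 6.37 in Ws, with no overlap and a difference of −0.46 (SE 0.13) that was −0.28 without pair 3.

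The arrays of KNO3-treated roots share no array with the KCl comparison and measure the same genotype difference 2 h after nitrate. There too no probe set passed the adjusted threshold in limma, where 1755 (7.72%) had an unadjusted p under 0.05, with 4.16% of all probe sets higher and 3.56% lower at that level. None passed in the average over both treatments, where the smallest adjusted p was 0.0952 and 1347 (5.92%) had an unadjusted p under 0.05. The genotype differences in KCl and in KNO3 correlated across the 22746 probe sets with Pearson r of −0.02 and Spearman rho of −0.13, and 44.5% of probe sets had the same sign in both. Of the 434 genes that met the naming criteria in KCl, 177 (40.8%) had the same sign in KNO3, 81 of the 242 higher and 96 of the 192 lower genes.

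**Figure D4:**
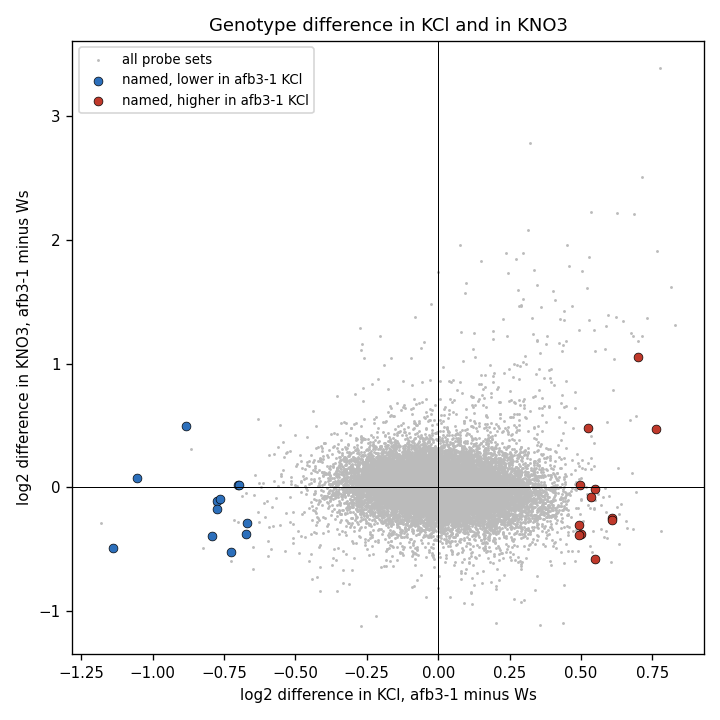
Genotype difference in KNO3 against that in KCl, both as log2 of afb3-1 minus Ws, for all probe sets in grey and for the named genes lower (blue) or higher (red) in KCl. The cloud has a Pearson r of −0.02 with a sparse tail of probe sets higher in both, and 8 of the 12 blue but 4 of the 12 red points have the same sign in both treatments.

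Of the 12 genes higher in KCl, 4 had the same sign in KNO3, and 3 of these had an unadjusted p under 0.05 there. AT5G48570 differed by 1.05 in KNO3, AT5G59540 by 0.48 and AT2G36130 by 0.47, with unadjusted limma p-values of 0.0004, 0.011 and 0.0070. The green tissue markers RCA and LHCB4.1 differed by 1.1 and 1.01 in KNO3 and by 0.55 and 0.30 in KCl. Another 3 genes higher in KCl were lower in KNO3 at an unadjusted p under 0.05, with a difference there of −0.58 for AT4G16660, −0.38 for AT1G12650 and −0.38 for AT4G02800. Of the 12 lower genes, 8 had the same sign in KNO3 and 0 had an unadjusted p under 0.05, and their median difference there was −0.14, against −0.77 in KCl.

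Whether the genotype difference itself differed between treatments was tested with the interaction term. No probe set passed in limma (smallest adjusted p = 0.473, with 2073 or 9.11% at an unadjusted p under 0.05). Without replicate 3, 20 probe sets passed for the interaction, 10 in KNO3, 16 in the average and 0 in KCl. At an unadjusted p under 0.05 the interaction picked out 9 of the 12 higher and 6 of the 12 lower genes, a count that favours these genes because they were chosen for large differences in KCl. The differences named here are therefore not shown to belong to KCl alone. EXPA8 differed by −0.46 in KCl and by 0.40 in KNO3, with an interaction adjusted p of 0.473 in limma.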

How the data were processed

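Biotin-labelled cRNA of whole roots was hybridized to Affymetrix arrays, per the labels' protocols. The deposited log2 signals of 22810 probe sets were used as the authors processed them; the sources used here do not give the normalization. Array controls (64 probe sets) were left out. Of the other 22746, 13513 had 1 gene in the GEO platform annotation (13436 updated to the TAIR10.1 RefSeq table), 503 several and 8730 none. For the 147 of 13355 genes with several probe sets, the one with the highest mean stood for the gene.

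One linear model over all 12 arrays, with replicate number within treatment as a block (6 pairs), was fitted in limma 3.58.1 (R 4.3.3); its moderated variances had 4 residual degrees of freedom and 6.18 from the prior. Tests were two-sided, with Benjamini-Hochberg adjustment over 22746 probe sets. Deviations from group means of same-numbered KCl arrays correlated by 0.301, 0.661 and 0.605, which is where the pairing comes from. However, afb3-1 replicate 1 correlated with Ws replicate 2 by 0.239, so pair 1 was less distinct. Another unlike pair, afb3-1 replicate 2 with Ws replicate 1, gave 0.135, and the rest were negative. The SEs depend on this block: without it that of AT3G63360 was 0.63 and that of AT2G36130 0.16. The labels say only that the replicates were independent biological samples. The number of arrays limits precision.

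Genes were named by size among those with an unadjusted p under 0.05, 1 sign in all 3 pairs and a group mean of at least 4 (12 per direction), and from gene lists. The members and lists were chosen with earlier results of these data known. The procedure was tested on simulated data. Alternatives were pairing, normalization, filter, moderation, weights, thresholds and left-out arrays. Figures were drawn with matplotlib 3.10.9.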

Additional observations from a re-analysis of the deposited data

How the results depend on the processing

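The count of 0 probe sets past the adjusted threshold in KCl held under every alternative run, which also covered no replicate block. The 1614 probe sets at an unadjusted p under 0.05 became 602 with no replicate block (33.4% higher in afb3-1) and 2686 with array weights (43.9% higher). Single arrays were left out with no replicate block, so those counts compare with the 602. They were lower without afb3-1 replicate 1 (367) or 2 (349). Counts were higher without afb3-1 replicate 3 (1126) and without Ws replicate 1 (844), 2 (864) or 3 (757). In KNO3, 1 probe set passed with a mean-variance trend and 10 without replicate 3. In the average over treatments, 1 passed with the block as a random effect, 2 with a trend, 1 with array weights, 1 at an adjusted p of 0.1 and 16 without replicate 3. For the interaction, 20 passed without replicate 3. Of the 24 named genes, 23 kept their sign under all 18 alternatives. The naming rule asked for 1 sign in all 3 pairs, so leaving out a pair could not turn it. Alternatives that changed only the block, the moderation or the filter left the estimate itself unchanged. The count of 23 is therefore largely fixed by the choice of genes. Among recomputed genes with an unadjusted p under 0.05 in the main fit, the sign turned for AT4G16660 (−0.030), UGT72E3 (0.063) and IAA33 (0.033). Each turned without Ws replicate 3 and with no replicate block. List genes above that p turned there too, among them NRT2.5 (−0.13 to 1.08), ACR4 (0.15 to −0.13) and IAA31 (−0.05 to 0.20). Of the alternative values for 101 genes and list medians, 1670 lay within 1 SD of the pairs and 127 did not. The cause of these shifts was not tested. The count of 1670 is also largely fixed beforehand. For a gene it includes the unchanged estimates, and leaving out 1 of 3 pairs cannot move a mean by 1 SD of those pairs. Signals in the dimmest tertile (mean up to 2.32) carry little information on fold size.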

Other observations

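Among the 12 named genes lower in afb3-1, 8 belong to a set of 49 genes known to be induced in Arabidopsis seedlings under low oxygen. This list was written after the values were seen and gets no test. Of its 49 genes 27 had a named probe set. The difference in KCl was negative for 25 of them, as it was for 11755 of all 22746 probe sets. At an unadjusted p under 0.05 there were 18, all lower (66.7%, against 7.10% of all probe sets). The median difference was −0.54, where that of all probe sets was −0.01, and without the 8 named genes it was −0.35 over 19 genes, 10 of them lower at an unadjusted p under 0.05. None passed the adjusted threshold in limma.

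The mean log2 signal of the 27 genes was 5.72, 5.58 and 5.72 on the afb3-1 KCl arrays, against 6.47, 5.70 and 6.36 on the Ws KCl arrays. Ws replicates 1 and 3 were high and Ws replicate 2 was near the mutant level. The median difference of the list was −0.88 in pair 1, −0.14 in pair 2 and −0.53 in pair 3. In KNO3 the median was 0.05, with 16 genes higher and 11 lower. Over the 18 alternatives run for the named genes, the list's median in KCl ran from −0.88 to −0.33, and the count lower at an unadjusted p under 0.05 ran from 3 to 21. It was 3 when variances were not moderated, 6 with no replicate block, 11 with array weights, 5 without replicate 1, 21 without replicate 2 and 12 without replicate 3.

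Members outside the named genes included AT3G10040, the trihelix factor HRA1 that restrains the low-oxygen response. It gave 5.41, 4.61 and 4.78 in afb3-1 against 6.60, 4.86 and 5.28 in Ws, a difference of −0.65 (SE 0.18) in KCl and of −0.48 in KNO3. AT5G54960, the pyruvate decarboxylase PDC2, gave 6.79, 6.58 and 7.03 in afb3-1 against 7.43, 6.55 and 7.21 in Ws, a difference of −0.27 with a 95% interval from −0.58 to 0.05. The universal stress protein AT3G03270 differed by −0.18 in KCl and by 0.33 in KNO3.

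The probe set with the smallest p, both in KCl and in the average over treatments, has no single gene in the annotation used and was singled out after its values were seen. This probe set, 261195_at, gave 5.32, 5.08 and 5.26 in afb3-1 KCl roots against 6.01, 5.88 and 5.95 in Ws KCl roots. The groups lay far apart relative to their spread, and the pairs differed by −0.69, −0.80 and −0.69. In KNO3 its difference was −0.60. Averaged over both treatments it was −0.66 (adjusted p = 0.0952 with limma), with adjusted p-values of 0.0132 with a mean-variance trend, 0.0287 with the block as a random effect, 0.0304 with array weights and 0.0327 without replicate 3. No probe set passed in that average with no replicate block (smallest adjusted p 0.540), without replicate 1 (0.264) or without replicate 2 (0.330). None passed either with unmoderated variances (0.102), quantile normalization (0.0879), median centring (0.0699) or without the dimmest tertile (0.111). 261195_at was lower in afb3-1 in 6 of 6 pairs.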
